A study of Mus musculus with 18 samples.

Results

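Retinas treated with INS37217 were compared at 7 d and at 2 h after detachment, to describe which transcripts still differed from the first hours once a week had passed. The comparison takes 6 of the 18 arrays of the study, chosen by their titles: the 3 arrays titled as INS37217-treated at 7 d and the 3 titled as INS37217-treated at 2 h. All 22626 probe sets that are not Affymetrix controls were tested, and the replicate number was kept in the model as a block. In the study, Balb/cJ mice, an albino strain, were injected under the retina with 1 uL of fluid, which lifts the retina from the pigment epithelium. The fluid was saline with 10 uM INS37217 in the treated groups and saline alone in the other groups, and retinas were taken at 2 h, 24 h and 7 d. INS37217 (denufosol) activates the nucleotide receptor P2Y2, and its use in detachment rests on the pumping of fluid out of the subretinal space by the pigment epithelium. Each array received RNA from a pool of more than 5 retinas, with 3 pools per treatment and time described as biological replicates. Both groups compared here carry the injection, the detachment and the compound, and no untreated retina was analysed here, so a difference between 7 d and 2 h does not show how far either time lies from a normal retina. The labels used here state neither the age nor the sex of the mice.

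Photoreceptors depend on the pigment epithelium for oxygen, nutrients and the recycling of visual pigment, and detachment cuts that contact. In injured retina, immediate early genes and chemokines are known to be induced within hours, Mueller glia become reactive, and microglia and macrophages from the blood take up debris. Repair can also bring in matrix-forming and contractile cells, which are known from the membranes that form on detached human retinas.

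Of the 22626 probe sets, 4047 passed at an adjusted p under 0.05 (17.9%). They were split almost evenly, with 2083 higher at 7 d (9.21%) and 1964 lower (8.68%), and the median over all probe sets was a log2 difference of -0.04. Most of these changes were small. A change of 2-fold or more was reached by 197 probe sets that were higher (0.871%) and 175 that were lower (0.773%). By gene, with 1 probe set standing for each of 12393 genes, 1087 rose (8.77%) and 1219 fell (9.84%), and the median gene stood at -0.05. Without the replicate block, 569 probe sets were higher (2.51%) and 541 lower (2.39%), in all 1110 (4.91%), each of them also among the 4047, and by gene 2.9% rose and 2.75% fell. The arrays of the groups did not overlap for 1702 probe sets that were higher (7.52%) and 2005 that were lower (8.86%). At 2-fold or more the block mattered less, since 342 of the 372 probe sets also passed without it. In the text below, "rose" and "fell" refer to the test with the block, each value is a log2 signal or a log2 difference of 7 d minus 2 h, n is 3 arrays per group, and each adjusted p comes from limma over all 22626 probe sets. Values on the log2 scale are compared within a probe set only. The genes with the 12 largest rises and the 12 largest falls were chosen among those without overlap of the groups. For them the absence of overlap follows from the choice and is not further evidence.

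Within a time, replicates 2 and 3 were nearly alike (correlations of 0.9944 and 0.9960), and replicate 1 stood apart, with correlations of 0.9591 to 0.9809 to either of them. All 26 measured rod genes lay above the median level of the arrays, and so did 16 of 18 lens genes. The median rod gene lay at percentile 99.3 of the levels and the median lens gene at 99.2. The beta-actin controls gave a 3' minus 5' signal, a measure of RNA breakdown, of 0.75 at 2 h and 0.60 at 7 d, and the difference of -0.14 had a two-sided exact permutation p of 0.2, where 3 arrays against 3 can give no less than 0.1. In 5 of the 6 arrays the source name mentions saline and no compound although the title names INS37217, so the treatment was taken from the titles. The times are the same in both fields.

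**Figure D1:**
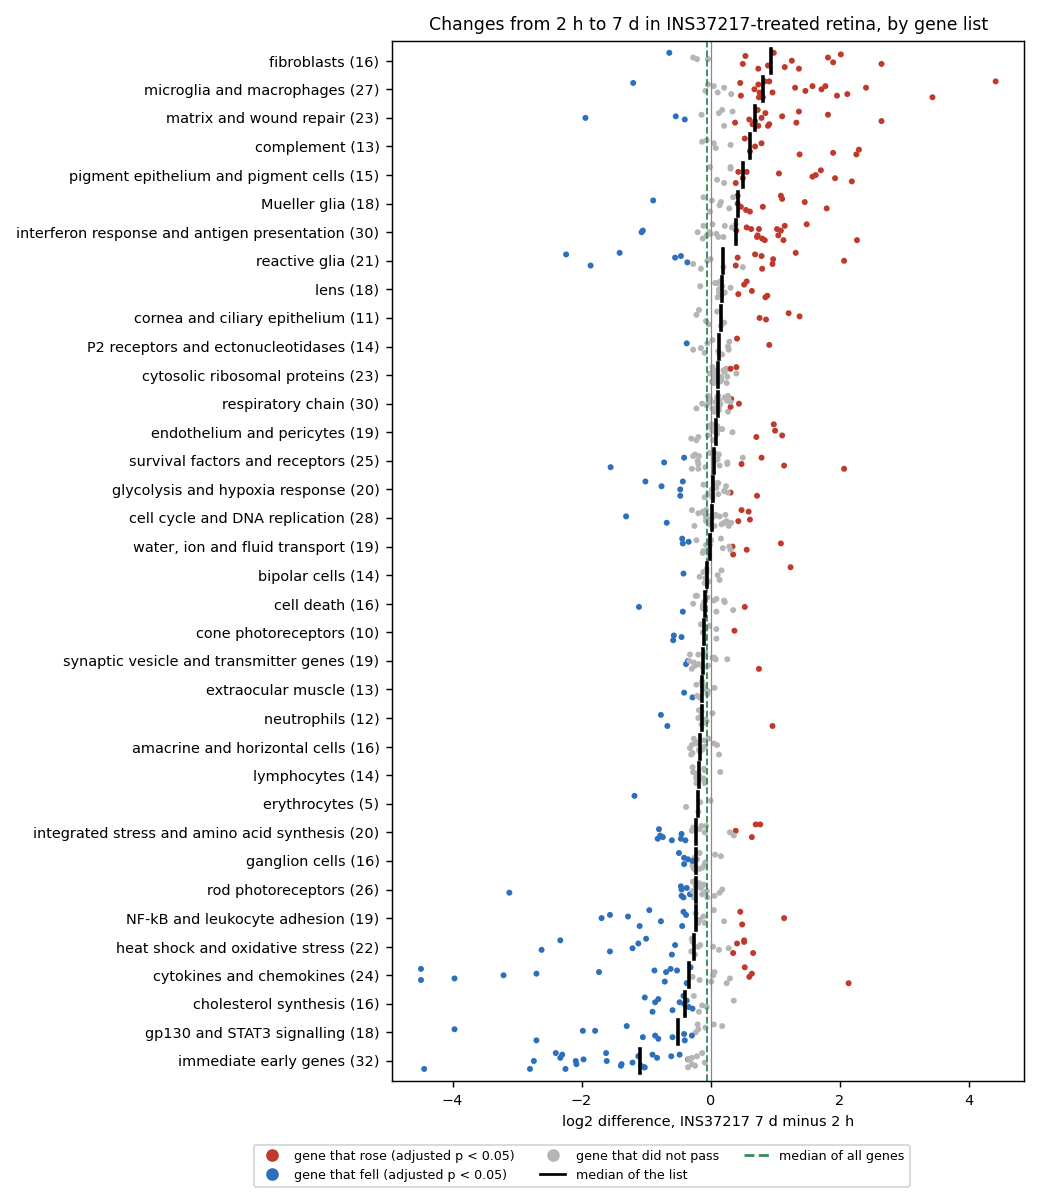
Each point is 1 gene of a list (number measured in parentheses), placed by its log2 difference of 7 d minus 2 h in INS37217-treated retina; black bars are list medians and the dashed line is the median of all genes, -0.05. The immediate early genes have the lowest median, -1.10, and the fibroblast genes the highest, 0.93.

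Immediate early genes, the transcription factors and regulators that cells switch on without new protein synthesis, were lower at 7 d throughout. Of 32 measured, 24 fell and 0 rose (9.84% of all genes fell), all 32 had a difference below 0, and the median was -1.10. Without the block 22 fell. The mean over the list was 8.23 to 8.43 on the 2 h arrays and 6.94 to 7.06 on the 7 d arrays.

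Maff, a small Maf transcription factor, measured 10.00, 10.16 and 9.92 in replicates 1 to 3 at 2 h and 5.87, 5.33 and 5.56 at 7 d. The groups lay far apart, and Maff fell by 4.44 (SE 0.16, adjusted p = 2.3e-14), or 21.7-fold. Fos, a subunit of the AP-1 factor, read 11.65, 12 and 12.06 at 2 h against 8.73, 9.23 and 9.35 at 7 d and fell by 2.80 (SE 0.11, adjusted p = 1.4e-13). Egr1, a zinc finger factor of the same early wave, went from 11.70, 11.59 and 11.50 to 8.60, 9.07 and 8.90, a fall by 2.74 (SE 0.12, adjusted p = 7.2e-13). Atf3, a stress-induced factor, went from 10.12, 10.03 and 10.14 to 7.66, 7.66 and 7.77 and fell by 2.40 (SE 0.09, adjusted p = 1.1e-13). For each of these 4 genes every 2 h array was above every 7 d array, which the choice of Maff, Fos and Egr1 required.

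Other list members that fell by more than 1 were Fosb, Zfp36, Nr4a1, Arc, Fosl1, Jun, Dusp1, Klf10, Junb, Btg2, Ier5, Gem, Klf4, Ier2 and Egr2, in order from -2.33 to -1.02. The 8 members that did not pass ranged from -0.35 to -0.09, and they include the neuronal factors Nr4a2 (-0.29) and Nr4a3 (-0.29) and the AP-1 subunit Fosl2 (-0.13). The fall was thus uneven within the list.

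The promoters of these genes are of interest because many early genes carry a cyclic AMP response element (CRE), the binding site of CREB, near their start. RefSeq promoter windows of GRCm38.p6, limited here to the 250 bases before the start, were found for 17 of the 24 genes that fell. The CRE core motif, TGACG on either strand, occurred in 11 of the 17 (64.7%), against 27% of 9887 genes on the array and 19.8% of 27025 genes in the table. The full CRE, a palindrome of the core motif that contains it on both strands, occurred in 3 of 17 (17.6%), against 2.53% of the genes on the array. The CArG box of serum response factor (CC, 6 of A or T, then GG) occurred in 2 of 17 (11.8%, against 1.6%), and the AP-1 site TGANTCA in 0 of 17, against 6.84%. The median GC content was 64.8% in the 17 and 58.4% in the genes on the array, and genes with several listed starts have more chances of a match. These are matches of letters only, and the share of genes with a match was not tested. The windows of 4 members with core motifs are printed 5' to 3' on the strand of the gene, with each core motif in capitals (TGACG, or CGTCA where it lies on the other strand):
Fos: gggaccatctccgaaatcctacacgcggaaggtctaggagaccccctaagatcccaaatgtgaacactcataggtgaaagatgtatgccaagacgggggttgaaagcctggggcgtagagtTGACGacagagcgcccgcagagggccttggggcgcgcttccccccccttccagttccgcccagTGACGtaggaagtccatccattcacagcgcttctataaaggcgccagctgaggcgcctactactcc
Nr4a1: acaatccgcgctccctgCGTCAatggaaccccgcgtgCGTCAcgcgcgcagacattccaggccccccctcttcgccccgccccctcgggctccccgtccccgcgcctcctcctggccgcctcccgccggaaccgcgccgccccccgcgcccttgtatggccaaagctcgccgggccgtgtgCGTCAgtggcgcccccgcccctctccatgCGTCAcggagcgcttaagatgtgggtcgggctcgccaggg
Junb: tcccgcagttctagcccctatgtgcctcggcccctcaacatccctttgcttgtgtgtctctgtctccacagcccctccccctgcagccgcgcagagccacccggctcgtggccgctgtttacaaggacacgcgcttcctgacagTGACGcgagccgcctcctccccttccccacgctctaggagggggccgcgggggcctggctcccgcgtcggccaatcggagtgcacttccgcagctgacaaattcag
Atf3: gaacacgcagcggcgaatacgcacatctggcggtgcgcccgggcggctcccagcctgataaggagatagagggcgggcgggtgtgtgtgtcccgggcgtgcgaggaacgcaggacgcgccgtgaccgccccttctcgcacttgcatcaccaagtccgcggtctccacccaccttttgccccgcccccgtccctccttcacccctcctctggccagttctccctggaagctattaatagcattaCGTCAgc
The window of Fos is chr12:85473640-85473889, plus strand, with core motifs that begin at -129 and -66 from the start. Nr4a1, an orphan nuclear receptor gene, has 4 core motifs in chr15:101266596-101266845, plus strand, at -233, -213, -69 and -40. Junb, another AP-1 subunit, has 1 at -106 in chr8:84978749-84978998, minus strand, and Atf3 has 1 at -7 in chr1:191183334-191183583, minus strand. Nr4a1 measured 10.72, 10.20 and 10.23 at 2 h and 8.43, 7.97 and 8.0 at 7 d. Junb measured 8.77, 8.51 and 8.58 at 2 h and 7.10, 7.23 and 7.36 at 7 d. Both fell, by 2.25 and 1.39, with no overlap between the times. At 24 h the means were 8.96 for Nr4a1, closer to its 7 d level, and 8.82 for Junb, at its 2 h level.

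Many cytokines and chemokines fell too. Of 24 measured, 13 fell and 4 rose, with a median of -0.34, and 9 fell and 1 rose without the block. Cxcl1, a neutrophil-attracting chemokine, measured 9.01, 9.32 and 9.13 at 2 h and 4.87, 4.39 and 4.73 at 7 d, a fall by 4.49 (SE 0.17, adjusted p = 5.9e-14). Cxcl2, its close relative, measured 7.91, 8.85 and 8.67 and then 4.46, 3.61 and 3.89, a fall by 4.49 as well (SE 0.26, adjusted p = 6.2e-11). Ccl2, which attracts monocytes, measured 9.10, 9.45 and 9.81 and then 6.07, 6.38 and 6.29 and fell by 3.21 (SE 0.12, adjusted p = 3.3e-14). In all 3 chemokine genes the times did not overlap, as their choice among the largest falls required.

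Il6, a cytokine that signals through gp130, measured 6.73, 8.16 and 8.11 at 2 h and 3.70, 3.63 and 3.76 at 7 d. It fell by 3.97 (SE 0.24, adjusted p = 9.6e-11), with replicate 1 lower than the others at 2 h. The 7 d values of Cxcl1, Cxcl2 and Il6 lie below the lower quartile of the arrays, 5.16 to 5.45, among the dimmest signals, where the size of a fall is less certain. The 4 that rose were Ccl6, a macrophage chemokine (2.14), and Ccl12 (0.64), Cxcl12 (0.60) and Ccl9 (0.53), which did not pass without the block (adjusted p = 0.14, 0.3 and 0.06). With the array of 2 h replicate 2 left out, 2 rose.

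Genes of gp130 and STAT3 signalling, the pathway of Il6 and Lif, fell as well. Of 18 measured, 12 fell and 0 rose (8 fell without the block), with a median of -0.50. Lif, a ligand of gp130 made by retinal glia after photoreceptor injury, measured 8.70, 8.77 and 8.35 at 2 h and 6.09, 5.81 and 5.81 at 7 d and fell by 2.70 (SE 0.11, adjusted p = 3.7e-13). Cebpb, a transcription factor of the inflammatory response, fell by 1.98 (SE 0.12, adjusted p = 1.3e-10). Socs3, the feedback inhibitor of STAT3, measured 9.32, 9.76 and 9.73 at 2 h and 7.37, 8.17 and 7.89 at 7 d, a fall by 1.79 (SE 0.10, adjusted p = 2.5e-11). Its 24 h mean was 9.58, as high as at 2 h, whereas Lif had a 24 h mean of 6.04. Stat3 itself fell by 0.59, while the shared receptor Il6st stood at 0.18 and did not pass.

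In the list of NF-kB and leukocyte adhesion, 9 of 19 fell and 3 rose, with a median of -0.23 (5 fell and 2 rose without the block). Nfkbia, a feedback inhibitor of NF-kB, was among those that fell, by 1.28 (SE 0.09, adjusted p = 2.2e-09), as was Nfkbiz, by 1.69 (SE 0.10, adjusted p = 8.8e-11). Icam1, the adhesion ligand that leukocytes bind, measured 7.29, 7.31 and 7.06 at 2 h and 5.65, 5.67 and 5.67 at 7 d and fell by 1.56 (SE 0.09, adjusted p = 9.6e-11). Itgb2, the chain of the leukocyte integrins that bind it, moved the other way, from 5.21, 5.22 and 5.19 to 6.37, 6.26 and 6.41, and rose by 1.14 (SE 0.13, adjusted p = 2.1e-06). The ligand and its receptor chain thus had opposite directions without overlap of the times. Bcl3 (0.49) and Itgam (0.46) also rose, and with 2 h replicate 2 left out 1 of the 3 passed.

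Among genes of heat shock and oxidative stress, 8 of 22 fell and 5 rose (8 and 1 without the block), with a median of -0.26. Metallothioneins, which bind zinc and copper, stood out: Mt2 measured 12.43, 12.04 and 12.16 at 2 h and 9.87, 9.82 and 9.96 at 7 d and fell by 2.33 (SE 0.10, adjusted p = 8.5e-13). Mt1 fell by 1.56 (SE 0.12, adjusted p = 2.4e-09). Srxn1, sulfiredoxin, which restores oxidised peroxiredoxins, measured 10.25, 10.39 and 10.43 and then 7.66, 7.81 and 7.75 and fell by 2.62 (SE 0.10, adjusted p = 1.4e-13), with its 4 probe sets between -2.62 and -0.41. Bag3, a co-chaperone, fell by 1.21. Those that rose, by 0.35 to 0.66, were Gpx1, Hspa8, Cat, Gclm and Hspe1, and 3 rose with 2 h replicate 2 left out.

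Genes outside these pathways fell as well. Ptx3, a pentraxin of innate immunity, measured 8.13, 7.78 and 7.24 at 2 h and 4.20, 4.13 and 4.16 at 7 d, 11.7-fold lower (SE 0.13 on the log2 scale, adjusted p = 2.3e-14), a size that is less certain because the 7 d values lie below the lower quartile of the arrays. F3, tissue factor, which starts blood clotting, measured 7.57, 8.72 and 8.65 and then 5.51, 5.73 and 5.84, 6.15-fold lower (SE 0.15, adjusted p = 4.3e-11). Hbegf, a growth factor of the EGF family, fell by 1.55 and Cdkn1a, an inhibitor of the cell cycle, by 1.31, both with no overlap.

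The integrated stress list was mixed, with 8 of 20 lower and 4 higher (4 and 2 without the block) and a median of -0.22. Of all genes 9.84% fell and 8.77% rose. Ppp1r15a, the phosphatase subunit that ends the response, fell by 0.82 (SE 0.10, adjusted p = 6.5e-06) and Trib3 by 0.78, while Chac1, a glutathione-degrading enzyme of the same pathway, rose by 0.77 (SE 0.11, adjusted p = 2.9e-05). With 7 d replicate 3 left out, 5 of the list fell.

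Cholesterol synthesis genes fell with the block and mostly not without it. Of 16 measured, 11 fell and 0 rose, with a median of -0.39, but 1 fell without the block and 7 with 7 d replicate 1 left out. That 1 gene was Hmgcs1, which makes the HMG-CoA that feeds the pathway: it measured 10.45, 10.49 and 10.54 at 2 h and 9.27, 9.83 and 9.69 at 7 d and fell by 0.90 (SE 0.13, adjusted p = 2.5e-05, and 0.0013 without the block). Cyp51, a sterol demethylase, measured 6.96, 7.79 and 7.80 and then 5.68, 6.98 and 6.84. Its difference was -1.02 (adjusted p = 1.1e-05, and 0.25 without the block), and the times overlapped because replicate 1 was lower at both.

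**Figure D2:**
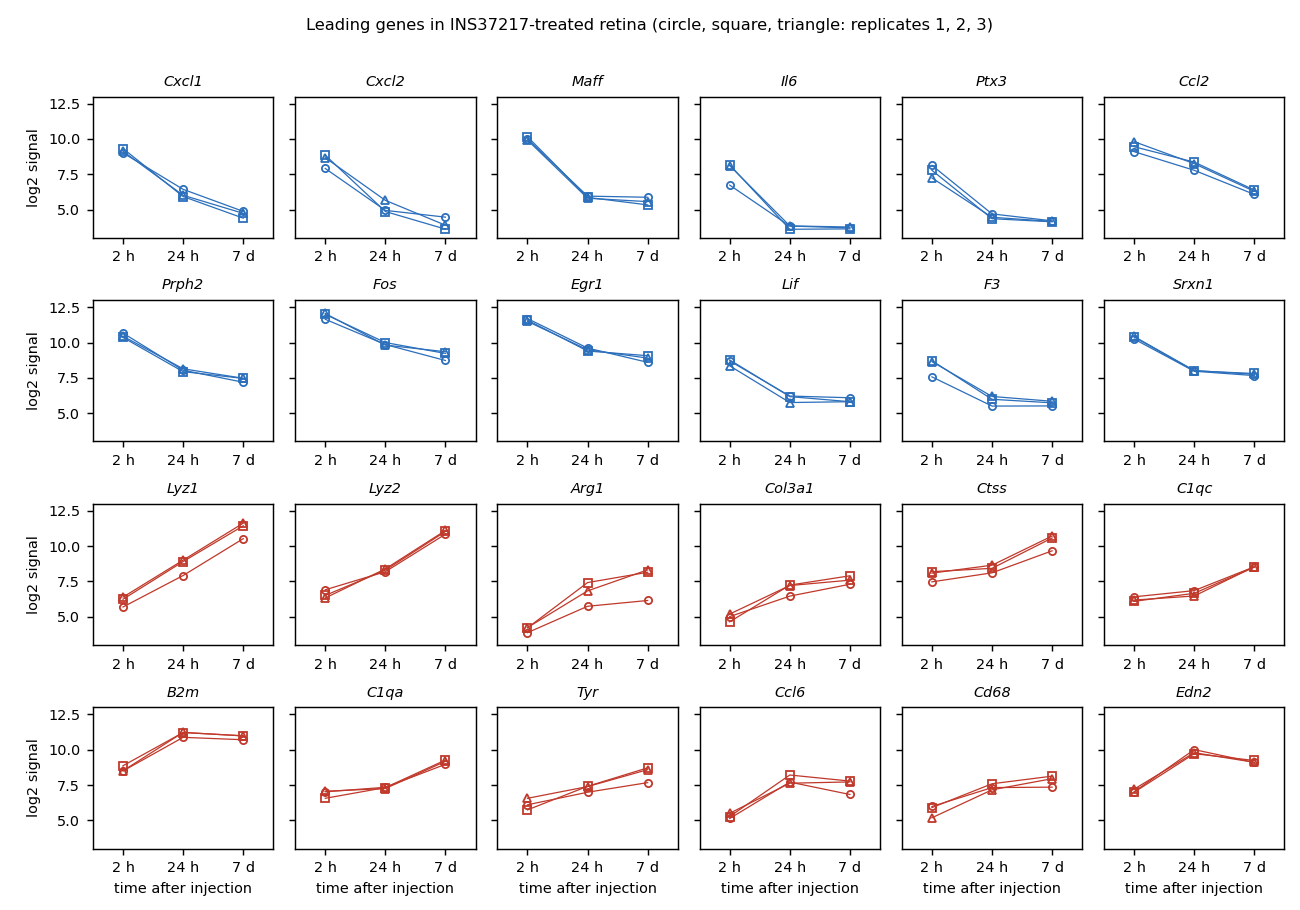
Log2 signal (y axis) at 2 h, 24 h and 7 d (x axis) for the 12 genes with the largest falls (blue) and the 12 with the largest rises (red) among those without overlap of the groups; lines join arrays with the same replicate number. The 24 h points of Maff, Lif and Srxn1 lie near their 7 d points, whereas C1qc and Ctss were closer to their 2 h level at 24 h.

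Genes of microglia and macrophages made up the largest number of genes that rose in 1 list. Of 27 measured, 20 rose and 1 fell (18 and 1 without the block; 8.77% of all genes rose), and the median was 0.81. The mean over the list was 5.92 to 6.05 on the 2 h arrays and 6.96 to 7.13 on the 7 d arrays. In whole retina, more cells of a type and more RNA per cell cannot be told apart, here and for each cell type below.

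Lyz2, lysozyme of macrophages, measured 6.91, 6.51 and 6.33 at 2 h and 10.85, 11.04 and 11.11 at 7 d and rose by 4.42 (SE 0.13, adjusted p = 2.4e-15), or 21.4-fold. Its close relative Lyz1 measured 5.69, 6.24 and 6.39 and then 10.53, 11.44 and 11.63, a rise of 5.09 (SE 0.11, adjusted p = 1.5e-17), but another Lyz1 probe set stood at 0.14, and signal from Lyz1 and Lyz2, which are near-identical copies, cannot be told apart here. Neither pair of groups overlapped, as the choice of both genes among the largest rises required.

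Cd68, a lysosomal protein of phagocytes, measured 5.98, 5.90 and 5.18 at 2 h and 7.35, 8.13 and 7.95 at 7 d and rose by 2.12 (SE 0.20, adjusted p = 7.7e-08). Ctss, a protease that processes antigen in these cells, went from 7.47, 8.19 and 8.09 to 9.67, 10.58 and 10.72, a rise of 2.41 (SE 0.15, adjusted p = 9.7e-11). Arg1, arginase of repair-type macrophages, measured 3.87, 4.21 and 4.23 and then 6.15, 8.15 and 8.32 and rose by 3.44 (SE 0.30, adjusted p = 2.6e-08). Replicate 1 at 7 d had a much smaller Arg1 signal than the other two, yet stayed above every 2 h array. The 2 h values of Arg1 are below the lower quartile of the arrays, 5.16 to 5.45.

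Csf1r, Tyrobp, Fcer1g, Ptprc and Cx3cr1, receptors and adaptors of the myeloid surface, rose by 1.58, 1.96, 1.47, 1.72 and 0.96. The purinergic receptor P2ry12, which resting microglia carry, rose by 0.91 (SE 0.16, adjusted p = 0.00032). Cd14, the lipopolysaccharide co-receptor, was the member that fell, by 1.20 (adjusted p = 8.3e-08), and Tmem119, another marker of resident microglia, stood at 0.21 (adjusted p = 0.43).

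Of 14 lymphocyte genes 0 passed, with a median of -0.18 and 13 of 14 below 0. Of 12 neutrophil genes 1 rose and 2 fell (8.77% of all genes rose and 9.84% fell). Only 2 of the lymphocyte genes and 3 of the neutrophil genes lay above the median level of the arrays, so changes in most of them could hardly be seen. The one that rose was Lcn2 (0.96), which glia also make. The 2 that fell, S100a9 (-0.77) and S100a8 (-0.67), had adjusted p of 0.14 and 0.31 without the block. Their means at 24 h, 8.96 and 7.81, were above both other times (6.03 and 5.28 at 2 h, 5.26 and 4.61 at 7 d). Both calls depended on single arrays: for S100a9 the adjusted p was 0.053 without 2 h replicate 1, 0.064 without 2 h replicate 3 or 7 d replicate 2, and 0.13 without 7 d replicate 3, and for S100a8 it was 0.061 to 0.22 without any 1 of 5 arrays, all but 7 d replicate 1.

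Complement genes rose and none fell: 8 of 13, with or without the block, with a median of 0.61. C1qa and C1qc encode chains of C1q, the recognition molecule that tags synapses and debris and that microglia make. C1qc measured 6.41, 6.09 and 6.18 at 2 h and 8.54, 8.51 and 8.54 at 7 d and rose by 2.30 (SE 0.11, adjusted p = 1.2e-12). C1qa measured 7.02, 6.56 and 7.06 and then 8.97, 9.27 and 9.18, a rise of 2.26 (SE 0.13, adjusted p = 4.1e-11). Serping1, the inhibitor of C1, rose as well, by 1.90 (SE 0.14, adjusted p = 2.5e-09), and C3ar1, the receptor of the C3a peptide, by 1.38 (SE 0.12, adjusted p = 1.9e-08). Activator and inhibitor thus moved the same way.

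Genes of antigen presentation and the interferon response also rose, 15 of 30 against 2 that fell (10 and 2 without the block), with a median of 0.39. B2m, the light chain of MHC class I, measured 8.50, 8.87 and 8.51 at 2 h and 10.71, 10.99 and 10.98 at 7 d and rose by 2.27 (SE 0.11, adjusted p = 3.6e-12). H2-Aa, a chain of MHC class II, measured 6.10, 5.62 and 5.59 and then 7.26, 7.31 and 7.20, a rise of 1.49 (SE 0.11, adjusted p = 3.5e-09). Cd74, the invariant chain that escorts class II, rose by 1.15 (SE 0.11, adjusted p = 7.7e-08). Ifit1, an interferon-induced RNA-binding protein, measured 5.66, 5.31 and 5.69 and then 6.62, 6.71 and 6.72 and rose by 1.13 (SE 0.14, adjusted p = 6.1e-06), below its 24 h mean of 8.66. Irf1 (-1.07) and Gbp2 (-1.05), both induced by interferon gamma, were the 2 that fell.

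Most matrix and fibroblast genes rose. Of 23 in the list of matrix and wound repair, 15 rose and 3 fell (12 and 2 without the block), with a median of 0.69. Of 16 fibroblast genes, some of them in both lists, 12 rose and 1 fell (10 and 0 without the block), with a median of 0.93, and the mean over the list went from 6.57 to 6.89 at 2 h to 7.61 to 7.71 at 7 d. Col3a1, a fibrillar collagen of repair tissue, measured 5.01, 4.64 and 5.19 at 2 h and 7.30, 7.90 and 7.59 at 7 d and rose by 2.65 (SE 0.16, adjusted p = 1.5e-10). The other Col3a1 probe set rose by 0.41 only.

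Col1a2, a chain of type I collagen, measured 7.00, 6.69 and 6.61 and then 8.25, 8.61 and 8.89, a rise of 1.82 (SE 0.15, adjusted p = 1.8e-08). Dcn, decorin, a proteoglycan that binds collagen fibrils, went from 6.46, 6.55 and 7.02 to 7.98, 8.98 and 9.13 and rose by 2.02 (SE 0.16, adjusted p = 7.8e-09). Postn, periostin, a matrix protein of scars, went from 6.66, 6.61 and 6.69 to 7.64, 8.34 and 8.09, a rise of 1.37 (SE 0.11, adjusted p = 6.9e-09). None of the 3 overlapped between the times. Fbln2, fibulin of basement membranes, rose by 1.90 (SE 0.16, adjusted p = 1.9e-08).

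Ccn1, a matricellular protein that is itself an early gene, fell by 1.94 (SE 0.11, adjusted p = 4.9e-11). Its relative Ccn2 rose by 0.65 (SE 0.11, adjusted p = 0.00019, and 0.17 without the block). The other members that fell were Timp3 (-0.54), an inhibitor of matrix proteases, Plaur (-0.40, adjusted p = 0.56 without the block), the urokinase receptor, and, in the fibroblast list, Col6a1 (-0.64, adjusted p = 0.096 without the block).

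Contractile genes and an endothelial receptor rose in the vessel list. Of 19 genes of endothelium and pericytes 4 rose and 0 fell (8.77% of all genes rose), with a median of 0.08. The share that passed was close to the 18.6% of all genes. Tagln, an actin-binding protein of smooth muscle and myofibroblasts, measured 7.31, 7.39 and 7.72 at 2 h and 8.04, 8.56 and 8.81 at 7 d and rose by 1.00 (SE 0.11, adjusted p = 5.9e-07). Acta2, smooth muscle actin, rose by 0.98 (SE 0.09, adjusted p = 9.3e-08), but its probe sets ran from -0.43 to 0.98 and 1 passed in the opposite direction. Kdr, the main receptor of VEGF on endothelium, rose by 1.11 (SE 0.10, adjusted p = 2.9e-08). The endothelial junction genes Pecam1 (-0.22) and Cdh5 (0.18) did not pass. Extraocular muscle, which could be carried over in dissection, had 0 of 13 genes higher and 2 lower, Myh2 (-0.41) and Acta1 (-0.28), but 1 of the 13 lay above the median level of the arrays, so most were too dim to be informative.

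Genes of pigment cells rose; the strain is albino, which makes tyrosinase that does not work. Of 15 measured, 10 rose and 0 fell (6 without the block), with a median of 0.50, and the mean over the list went from 7.49 to 7.71 at 2 h to 8.19 to 8.56 at 7 d. Tyr, tyrosinase, measured 6.10, 5.74 and 6.56 at 2 h and 7.67, 8.72 and 8.59 at 7 d and rose by 2.19 (SE 0.17, adjusted p = 6.9e-09), with its 3 probe sets between 0.81 and 2.19. Tyrp1, another melanin enzyme, went from 7.94, 7.74 and 7.84 to 9.24, 9.76 and 9.65, a rise of 1.71 (SE 0.13, adjusted p = 2.9e-09). Pmel, the fibril protein of melanosomes, rose by 1.63 (SE 0.11, adjusted p = 8.7e-10). Gpnmb, which both pigment cells and macrophages make, went from 8.07, 7.91 and 8.05 to 9.82, 10.01 and 10.00 and rose by 1.93 (SE 0.09, adjusted p = 2.9e-12).

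Rpe65, the visual cycle isomerase specific to the pigment epithelium, rose less, by 0.39 (adjusted p = 0.012, and 0.08 without the block), and Dct by 1.58. Trpm1, a channel of bipolar cells that pigment cells also make, rose by 1.24 (SE 0.11, adjusted p = 3.1e-08) and was the only 1 of 14 bipolar genes to do so. Its other probe set stood at 0.30 and did not pass (adjusted p = 0.078). Whether the retina pools held different amounts of attached pigment epithelium or choroid at the 2 times was not tested.

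Mueller glia genes rose in 10 of 18 and fell in 1 (8 and 1 without the block), with a median of 0.42. Gpr37, a receptor for glial survival peptides, measured 7.62, 8.37 and 8.41 at 2 h and 9.32, 10.29 and 10.20 at 7 d and rose by 1.80 (SE 0.11, adjusted p = 5.5e-11). Crym, a thyroid hormone-binding protein, rose by 1.46 (SE 0.11, adjusted p = 2.6e-09), and Apoe, the lipid carrier that Mueller glia secrete and macrophages also make, by 1.11 (SE 0.09, adjusted p = 1.9e-08). Aqp4, the water channel of Mueller end feet, measured 7.83, 8.27 and 8.34 and then 8.73, 9.52 and 9.46, a rise of 1.09 (SE 0.12, adjusted p = 1.1e-06, and 0.071 without the block). The times did not overlap for Aqp4. Glul, glutamine synthetase, which clears transmitter in these cells, stood at -0.01 (SE 0.13, adjusted p = 0.98), while its other probe set rose by 0.45 (adjusted p = 0.0041, and 0.63 without the block), and the transcription factor Sox9 fell by 0.89.

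Reactive glia genes moved in both directions: 9 of 21 rose and 6 fell (5 and 5 without the block), with a median of 0.20. Edn2, endothelin 2, a stress signal from photoreceptors, measured 7.03, 6.99 and 7.21 at 2 h and 9.10, 9.24 and 9.11 at 7 d and rose by 2.07 (SE 0.12, adjusted p = 2.9e-11). Gfap, the filament protein that marks gliosis, measured 8.12, 7.22 and 7.52 and then 9.04, 8.24 and 7.97. It was higher at 7 d in each replicate pair and rose by 0.80 (SE 0.11, adjusted p = 1.2e-05), but the groups overlapped and the adjusted p was 0.23 without the block.

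Fgf2, a survival factor for photoreceptors, measured 4.77, 4.60 and 4.44 at 2 h and 5.06, 5.70 and 5.43 at 7 d, dim values, and rose by 0.79 (SE 0.23, adjusted p = 0.021, and 0.33 without the block). That call was lost without 2 h replicate 2 (0.13), 2 h replicate 3 (0.16), 7 d replicate 1 (0.06) or 7 d replicate 2 (0.076), given as adjusted p. Of the 6 that fell, Emp1, a membrane protein, fell by 2.24 (SE 0.17, adjusted p = 4.6e-09) and Ptgs2, cyclooxygenase 2, by 1.86 (SE 0.15, adjusted p = 1.3e-08).

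Lens genes were 6 of 18 higher and 0 lower (3 and 0 without the block), with a median of 0.18. Cryga, a crystallin of lens fibres, measured 7.89, 7.94 and 8.03 at 2 h and 8.40, 9.02 and 9.09 at 7 d and rose by 0.88 (SE 0.14, adjusted p = 7.9e-05). Cryaa, the abundant alpha crystallin, stood at 0.11 (SE 0.09, adjusted p = 0.43). The list mean was 10.75 to 10.84 at 2 h and 11.02 to 11.17 at 7 d, and crystallins are close enough in sequence that probe sets may bind more than 1. Of 11 genes of cornea and ciliary epithelium 4 rose and 0 fell, led by Aldh3a1, a corneal enzyme (1.38, SE 0.11, adjusted p = 7.8e-09), while the corneal keratin Krt12 stood at 0.16. Whether other eye tissue entered the pools was not tested.

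**Figure D3:**
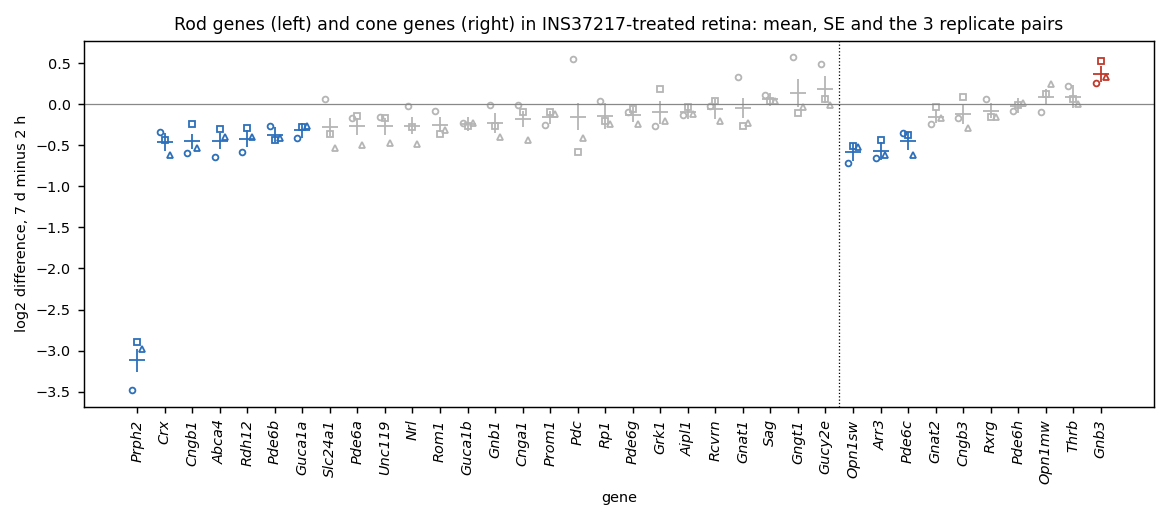
Log2 difference of 7 d minus 2 h (y axis) for 26 rod genes and 10 cone genes (x axis); horizontal ticks are means, bars are SE, and circles, squares and triangles are replicate pairs 1, 2 and 3. Prph2 stands at -3.12 while the other rod genes that fell lie between -0.46 and -0.32.

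Rod genes fell or did not pass, and most differences were small. Of 26 rod genes 7 fell and 0 rose (5 fell without the block), 23 of 26 were below 0, and the median was -0.23 against -0.05 for all genes. The count depended on the model: 10 fell with quantile normalization, 12 with trend and robust variance or with replicates 2 and 3, 14 with array weights, 11 with probe sets above the median level, and 10 without 2 h replicate 1. Prph2, peripherin 2, which holds the rims of outer segment discs, measured 10.67, 10.36 and 10.45 at 2 h and 7.19, 7.46 and 7.47 at 7 d. It fell by 3.12 (SE 0.14, adjusted p = 6e-13), or 8.69-fold, with no overlap, and a single probe set measures it on this array. Rom1, its partner in the disc rims, stood at -0.25 (adjusted p = 0.057). The other rod genes that fell did so by much less.

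Crx, the transcription factor that drives photoreceptor genes, measured 10.85, 11.04 and 11.05 at 2 h and 10.51, 10.61 and 10.43 at 7 d and fell by 0.46 (SE 0.11, adjusted p = 0.0052). Cngb1, a chain of the rod light-gated channel, fell by 0.45 (SE 0.09, adjusted p = 0.00091) and Abca4, which removes retinal from the discs, by 0.45 (SE 0.10, adjusted p = 0.004). The transducin gene Gnat1 stood at -0.05 and the arrestin gene Sag at 0.06; neither passed. At 24 h the means of Crx, Cngb1 and Abca4 were 10.28, 9.59 and 10.59, below their means at both other times (10.52, 10.07 and 10.82 at 7 d), whereas Prph2 had a 24 h mean of 8.04 and was lower still at 7 d.

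In cones, 3 of 10 genes fell and 1 rose (1 and 0 without the block), with a median of -0.10. Of all genes 9.84% fell and 8.77% rose. Opn1sw, the short-wave opsin, measured 11.22, 11.16 and 11.26 at 2 h, had a mean of 9.02 at 24 h, and measured 10.50, 10.65 and 10.74 at 7 d, a fall by 0.58 from 2 h (SE 0.11, adjusted p = 0.00062). The other Opn1sw probe set stood at -0.15 and did not pass (adjusted p = 0.49). Arr3, cone arrestin, fell by 0.57 (adjusted p = 0.0012, and 0.18 without the block). The medium-wave opsin Opn1mw stood at 0.09 and did not pass.

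Among genes of inner retinal neurons the share that passed was not above that of all genes (18.6%), apart from ganglion cell genes. Of 16 genes of amacrine and horizontal cells 0 passed, of 14 bipolar genes 1 rose and 1 fell, and of 16 ganglion cell genes 5 fell and 0 rose, of which 0 passed without the block; 2 to 5 fell when single arrays of the comparison were left out, the fewest without 7 d replicate 3. Nefh, the heavy neurofilament chain of ganglion cell axons, measured 8.01, 8.19 and 8.54 at 2 h and 7.40, 7.95 and 7.92 at 7 d, a difference of -0.49 (SE 0.12, adjusted p = 0.006, and 0.19 without the block). Of 19 synaptic genes 1 rose and 2 fell, with a median of -0.12, and 0 passed without the block. Syt1, the calcium sensor of synaptic vesicles, was the gene that rose, by 0.75 (SE 0.12, adjusted p = 0.0001, and 0.16 without the block). Gria2 (-0.38, adjusted p = 0.029) and Sv2a (-0.35, adjusted p = 0.021) fell.

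Respiratory chain and ribosomal genes had medians slightly above 0. Of 30 respiratory chain genes 3 rose and 0 fell, with a median of 0.12, and of 23 cytosolic ribosomal genes 2 rose and 0 fell, with a median of 0.12, and none of these 5 passed without the block. Both shares were near the 8.77% of all genes that rose. The respiratory count ranged from 1 to 6 and the ribosomal count from 0 to 4 when single arrays were left out. For the respiratory chain it was 8 with quantile normalization or with probe sets above the median level, 7 with trend and robust variance or with replicates 2 and 3, and 9 with array weights. Of 28 cell cycle genes 4 rose and 2 fell, a share close to the 18.6% of all genes, with a median of 0.02. Without the block 1 rose, and 2 rose without 2 h replicate 2, 7 d replicate 2 or 7 d replicate 3. Mki67, a marker of dividing cells, stood at 0.28 and did not pass. Of 16 cell death genes Casp8 rose (0.53) and Fas fell (-1.11, SE 0.12, adjusted p = 4.5e-07), and Mcl1 fell by 0.43 with the block only (adjusted p = 0.57 without it; 0.066 without 2 h replicate 3 and 0.058 without 7 d replicate 1). The share of cell death genes that passed was close to the 18.6% of all genes.

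No change was detectable in the receptor that INS37217 activates. P2ry2 measured 5.30, 5.45 and 5.47 at 2 h and 5.38, 5.20 and 5.48 at 7 d, dim and overlapping values, with a difference of -0.05 (SE 0.10, adjusted p = 0.76). Of 14 genes of P2 receptors and ectonucleotidases 2 rose, P2ry12 and P2ry6, and 1 fell, Nt5e, the enzyme that forms adenosine, by 0.37 (SE 0.09, adjusted p = 0.0062), a share close to the 18.6% of all genes that passed. P2ry6, a receptor for UDP, rose by 0.41 (adjusted p = 0.015, 0.074 without the block, and 0.12 without replicate 2 of either time). Of 19 genes of water, ion and fluid transport 4 rose and 3 fell, with 0 and 0 without the block and a median of -0.01. Of all genes 8.77% rose and 9.84% fell. With single arrays of the comparison left out, 2 to 4 rose and 0 to 2 fell, the fewest without 2 h replicate 2 or 3, and without saline 7 d replicate 2 the counts were 5 and 3.

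The INS37217 arrays at 24 h were not part of the comparison, and since a test of 24 h against 2 h would share the 2 h arrays, their levels are given as values only. Of the 62 named genes that rose, the 24 h mean lay between the other 2 means for 44, above both for 13 and below both for 5. Of the 61 that fell, it lay between for 43, above both for 2 and below both for 16. B2m (11.11), Edn2 (9.84), Ifit1 (8.66), Lcn2 (11.80) and Gfap (8.61) were highest at 24 h. Lyz2 (8.29), Ctss (8.40), C1qa (7.30) and Cd68 (7.36) stood between, and Apoe (10.26) and Aqp4 (8.11) were lowest at 24 h.

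To ask whether the change over time differed with INS37217, the time change in saline-injected retinas, measured on other arrays, was subtracted within the same model. Of 22626 probe sets 189 passed this test (0.835%), 113 with a more positive change in the treated retinas (0.499%) and 76 with a more negative one (0.336%). By gene 82 passed (0.662%), 0.508% more positive and 0.153% more negative. In saline 10.5% of genes rose and 10.5% fell. Without the block 20 passed. The beta-actin 3' minus 5' signal was 1.04 in the saline arrays at 2 h (0.93, 1.10 and 1.08), above the 0.75 of the INS37217 arrays at 2 h and the 0.65 of the saline arrays at 7 d, and its part in the differences between treatments was not tested. Among the 126 named genes 30 passed, 27 of them more positive and 3 more negative with INS37217, and 8 of the 30 passed without the block. Of the 32 immediate early genes 5 passed, all more positive with INS37217: Egr2 (1.28), Nr4a1 (0.92), Klf4 (0.76), Junb (0.70) and Btg2 (0.64). The list median was -1.10 with INS37217 and -1.54 with saline, and these 5 had higher 2 h means with saline, as Nr4a1 with 11.41 against 10.38, and 7 d means that lay closer, 8.24 against 8.13. Among those that did not pass, Maff differed by -0.01 (SE 0.22, adjusted p = 0.99) and Cxcl1 by -0.15 (SE 0.24, adjusted p = 0.93), and for Prph2, which fell by 2.31 in saline, the difference was -0.81 (SE 0.19, adjusted p = 0.05, not under the threshold).

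**Figure D4:**
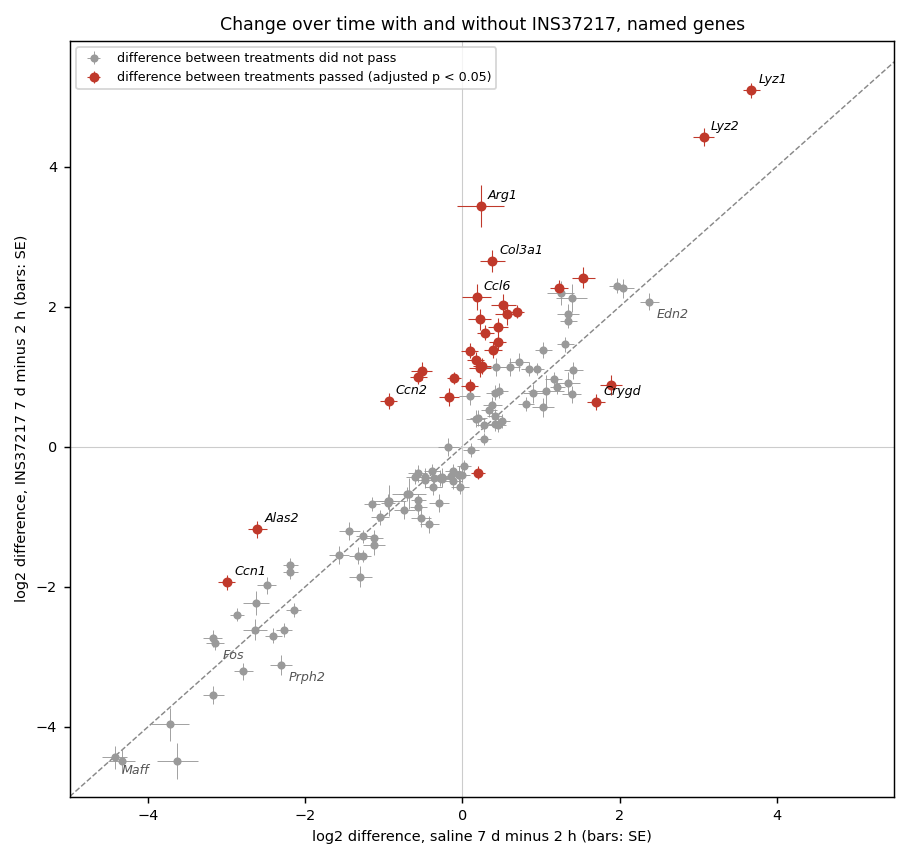
Log2 difference of 7 d minus 2 h in saline-injected (x axis) and INS37217-treated (y axis) retina for the 126 named genes, with SE bars; the dashed line marks equal change and the 30 red genes passed the test of the difference. Arg1, Col3a1 and Ccl6 lie far above the line with saline changes of 0.23, 0.38 and 0.18. Their saline means at 24 h, not shown here, were above those at 2 h and 7 d (5.53, 6.61 and 7.03).

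For several matrix and macrophage genes the rise was larger with INS37217. Arg1 went from a mean of 4.10 to 7.54 with INS37217 and from 4.08 to 4.31 with saline, a difference of 3.21 between the changes (SE 0.42, adjusted p = 0.0002, and 0.14 without the block). Col3a1 went from 4.95 to 7.60 and from 5.25 to 5.63, a difference of 2.27 (SE 0.23, adjusted p = 1.4e-05, and 0.0041 without the block). The other Col3a1 probe set did not pass this test (adjusted p = 0.32). Col1a2 went from 6.77 to 8.58 and from 6.81 to 7.03, a difference of 1.60 (SE 0.22, adjusted p = 0.00029, and 0.015 without the block).

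Lyz2 rose in both and more with INS37217, from 6.58 to 11 against 6.71 to 9.78, a difference of 1.35 (SE 0.19, adjusted p = 0.00037, and 0.013 without the block). Postn differed by 1.28 (SE 0.15, adjusted p = 6e-05, and 0.018 without the block) and Ccl6 by 1.97 (SE 0.27, adjusted p = 0.00037, and 0.16 without the block). The other Ccl6 probe set rose by 0.66 with INS37217 and did not pass the test of the difference (adjusted p = 0.13). For each of these genes the 2 h means of the treatments were close and the 7 d means apart. With saline, Arg1, Col3a1 and Ccl6 were higher at 24 h than at 2 h or 7 d, with 24 h means of 5.53, 6.61 and 7.03. With INS37217 their 24 h means were 6.66, 6.97 and 7.85. The 7 d means were 4.31, 5.63 and 5.49 with saline and 7.54, 7.60 and 7.44 with INS37217. Over the matrix list, 15 genes rose with INS37217 and 4 with saline, and 9 of 23 passed the test of the difference, all more positive. Over the fibroblast list 12 rose with INS37217, 6 rose with saline, and 6 of 16 passed. Dcn, one of the 6, differed mostly at 2 h, with means of 6.68 and 8.70 with INS37217 and 7.81 and 8.33 with saline.

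For other genes the means of the treatments lay apart at 2 h, and no test of that difference is reported here. Pmel went from 7.75 to 9.38 with INS37217 and from 8.97 to 9.25 with saline, a difference of 1.34 (SE 0.16, adjusted p = 6e-05, and 0.0051 without the block), and Tyrp1 from 7.84 to 9.55 and from 8.85 to 9.30. The saline means were thus higher at 2 h and close at 7 d. Over the pigment cell list 10 of 15 genes rose with INS37217 and 11 with saline. The difference passed as more positive for 4 (Pmel, Tyrp1, Gpnmb and Dct) and as more negative for 2, the visual cycle genes Rpe65 (-0.71) and Rgr (-0.77).

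Lens genes ran the other way. Of 18, 17 rose with saline (median 0.82) and 6 with INS37217 (median 0.18), and 8 passed the test of the difference, all more negative with INS37217. Crygd, a lens crystallin, rose in both, from 11.26 to 11.90 and from 10.11 to 11.81, with a difference of -1.07 (SE 0.16, adjusted p = 0.0011, and 0.076 without the block). Alas2, an enzyme of haem synthesis in red cell precursors, fell in both, from 7.49 to 6.31 and from 8.87 to 6.26, with a difference of 1.43 (SE 0.16, adjusted p = 5.7e-05, and 0.053 without the block).

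Tagln and Ccn2 had opposite directions in the treatments. Tagln went from 7.47 to 8.47 with INS37217 and from 8.03 to 7.46 with saline, a difference of 1.56 (SE 0.15, adjusted p = 5.7e-06, and 0.076 without the block). Ccn2 went from 8.70 to 9.35 and from 9.54 to 8.60, a difference of 1.59 (SE 0.15, adjusted p = 5.7e-06, and 0.15 without the block). The saline 7 d array of replicate 2 has a source name that gives 2 h. With it left out, 29 of the 30 genes passed, all but Myh11, a myosin of smooth muscle.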

How the data were processed

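Each array measured 7 ug of total RNA with Affymetrix probe sets. The deposited values are log2 signals that the authors made with robust multi-array averaging (RMA), per the submitters' processing notes, which give no version; values ranged from 2.83 to 14.15. Of 22690 probe sets, 64 Affymetrix controls were dropped and no filter on low values was applied. GEO's platform annotation gave 1 gene for 20380 probe sets, several for 691 and none for 1555, and a gene was represented by its probe set with the highest mean over all arrays.

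limma 3.58.1 in R 4.3.3 fitted all 18 arrays with 6 group means (2 treatments by 3 times) and the replicate number as a block, and p-values were adjusted by Benjamini-Hochberg over all tested probe sets, with a threshold of 0.05. The fit was tested on simulated data that carried the additive replicate effect the block assumes. With the block it found 64.2% of changes of 0.5, 98.5% of 1 and 100% of 2, and 10 of 185 calls were false. Without the block it found 6.0%, 58.2% and 93.9%, and 0 of 105 calls were false. Data built this way cannot show whether the block suits the real arrays. In the INS37217 groups, deviations from the group means of same-numbered arrays at 7 d and 2 h correlated at 0.752, 0.586 and 0.515 for replicates 1 to 3. Replicates 2 and 3 also correlated across numbers (0.496 and 0.485), while replicate 1 against 2 or 3 gave -0.696 to -0.554, so the block separates mainly replicate 1 from the other two. The labels call the replicates biological, and the number of arrays limits the precision.

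The genes compared and the 36 gene lists (759 genes, 657 measured) were chosen with earlier results of these data known. The text names the 12 largest rises and falls with the same sign in 3 pairs and no overlap, up to 4 called genes with the largest difference per list, the 6 largest treatment differences, and Gfap, Fgf2, P2ry2, Aqp4, Glul, Cryaa, Fos and Egr1 in any case. The following were named after their values were seen: Arc, Bcl3, Btg2, Cat, Ccl12, Ccl9, Cd14, Cdh5, Col6a1, Csf1r, Cx3cr1, Cxcl12, Dct, Dusp1, Egr2, Fcer1g, Fosb, Fosl1, Fosl2, Gbp2, Gclm, Gem, Gnat1, Gpx1, Hspa8, Hspe1, Ier2, Ier5, Il6st, Irf1, Itgam, Jun, Junb, Klf10, Klf4, Krt12, Mki67, Nr4a1, Nr4a2, Nr4a3, Opn1mw, Pecam1, Plaur, Ptprc, Rgr, Rom1, Rpe65, Sag, Sox9, Stat3, Timp3, Tmem119, Tyrobp and Zfp36. Promoter windows are those of RefSeq. The 16 alternatives cover the block, the arrays fitted, the normalization, dim probe sets, the variance model and the omission of single arrays.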

Additional observations from a re-analysis of the deposited data

Results flagged for a closer look

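The change from 2 h to 7 d differed between INS37217 and saline, by limma's test of the difference at an adjusted p under 0.05, for 30 of the 126 named genes; values are INS37217 minus saline on the log2 scale. Of macrophage, complement and antigen presentation genes, these were Lyz1 (1.41), Lyz2 (1.35), Arg1 (3.21), Ctss (0.87), Ccl6 (1.97), C3ar1 (0.99), B2m (1.04), H2-Aa (1.04), Cd74 (0.90) and Ifit1 (0.91), and the platelet chemokine Pf4 (1.60) joined them. Of matrix, fibroblast and contractile genes, they were Col3a1 (2.27), Col1a2 (1.60), Postn (1.28), Dcn (1.5), Fbln2 (1.33), Mfap4 (0.76), Ccn1 (1.06), Ccn2 (1.59), Tagln (1.56), Acta2 (1.09) and Myh11 (0.88).

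Of pigment cell genes, they were Gpnmb (1.24), Tyrp1 (1.26), Pmel (1.34) and Trpm1 (1.07), while Rpe65 (-0.71) and Rgr (-0.77), outside the naming rule, went the other way. Trpm1 (1.07), of the bipolar list, and the red cell gene Alas2 (1.43) also differed. The lens crystallins Cryga (-1.0) and Crygd (-1.07) and the ectonucleotidase Nt5e (-0.57) had the more negative change with INS37217. Without the block 8 of the 30 passed: Lyz2, Col3a1, Col1a2, Postn, Gpnmb, Pmel, Acta2 and Pf4. With single arrays left out 26 to 29 passed. For some of the 30 genes another probe set did not pass the test of the difference. These were Col3a1 (adjusted p = 0.32), Ccl6 (0.13), C3ar1 (0.13), Acta2 (0.35), Myh11 (0.71), Lyz1 (0.94) and Trpm1 (0.93). What sets these differences apart was not tested.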

How the results depend on the processing

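The replicate block set the counts. Without the replicate block 569 probe sets were higher and 541 lower at 7 d, and 20 differed between the treatments, against 2083, 1964 and 189 with it. The 6 compared arrays alone gave 1366 higher and 1111 lower with the replicate block and 213 and 191 without it. Array weights gave 3005 lower and 870 that differed between treatments, and replicates 2 and 3 alone gave 310 that differed. Probe sets above the median level, of which 11312 were tested, left 128 higher by 2-fold or more. With single arrays left out, the number higher ranged from 1390 to 2310, the number lower from 1273 (without 2 h replicate 3; 1274 without 7 d replicate 3) to 2037, those higher by 2-fold or more from 169 to 253, those lower by 2-fold or more from 168 to 177, and those that differed between treatments from 132 to 231. The cause of these shifts was not tested.

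No named gene that passed in the main fit or in an alternative changed direction between them, over the 16 alternatives. Changes of sign in genes that passed in neither were not counted. The restriction to probe sets above the median level tested 93 of the 126 and ended 0 calls. Of the 126, the block's removal ended 35 calls, the 6 arrays alone 12 with the block and 57 without it, and single omissions of a compared array 7 to 15. Quantile normalization ended 2 calls, trend and robust variance 3, replicates 2 and 3 alone 3, and equal medians and array weights 0. Dim probe sets, the single pools per array and 3 arrays a group limit what could be detected.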
